A study of Rattus norvegicus with 119 samples.

Results

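Ebf3 and Meis2, 2 genes of the 32662 in the count tables, encode transcription factors and were followed through every library of the study by their Ensembl identifiers, ENSRNOG00000016102 for Ebf3 and ENSRNOG00000004730 for Meis2. The tissues came from female Wistar rats on the day of birth (P0), and the labels name no treatment or engineered allele in either group. The ventral mesenchymal pad (VMP), a condensed mesenchyme beside the urethra that induces prostate buds in males and also forms in females, was compared with SU, the adjacent urethra, which holds urethral epithelium, smooth muscle and the mesenchyme around it. Each tissue had 1 Tag-seq library from pooled microdissected tissue, 1 RNA-seq library from a pool of collagenase-dissociated cells, and single cells captured on a Fluidigm C1 chip (scRNA-seq), 49 from VMP and 66 from SU. Dissociation left the epithelium in intact pieces that were removed, so the cell libraries of SU were enriched for stroma. A tissue had 1 library per assay, so no assay on its own gives a test between tissues. The cells of a tissue came from pooled animals and were not replicates of it. The labels name no chip, but 33 capture site numbers occurred in both tissues, from which separate chips were inferred. Chip and tissue thus cannot be told apart in the single cells. In bulk libraries, fewer cells of a type and less RNA per cell cannot be told apart.

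Ebf3 belongs to the EBF (early B-cell factor) family, DNA-binding proteins with a helix-loop-helix dimerization domain that act in differentiation of neural, lymphoid, adipose and other mesenchymal lineages. Meis2 is a homeodomain protein of the TALE class, a group that binds DNA together with PBX and HOX partners and helps to set position along limbs, hindbrain and urogenital tract. In the Rnor_6.0 genome, Ebf3 lies on chromosome 1 from 209523157 to 209641123 and Meis2 on chromosome 3 from 107559997 to 107760589. Their paralogs Ebf1 and Meis1 lie elsewhere, Ebf1 on chromosome 10 from 23661013 to 24050209 and Meis1 on chromosome 14 from 103181281 to 103321270, and serve here as the nearest points of comparison.

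The region just upstream of Ebf3 holds 1 copy of TGACAG, the 6-base core that MEIS homeodomains recognise. The sequence is from RefSeq (build GRCr8, chr1:201544445-201544555, minus strand, read 5′ to 3′ along the gene), with the match in capitals, 54 bases before the annotated start of the gene:
Ebf3: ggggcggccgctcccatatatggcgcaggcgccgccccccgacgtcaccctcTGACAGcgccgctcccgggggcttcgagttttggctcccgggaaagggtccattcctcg
Both strands of RefSeq windows of equal length around annotated gene starts were searched, and 6350 of 33469 windows (19.0%) held TGACAG. The windows of Ebf1, Meis1 and Meis3 held no match to it. The palindrome recognised by EBF proteins, TCCC and GGGA parted by any 2 bases, was in 279 windows (0.834%) and in none of the windows of Ebf3, Ebf1, Meis1 and Meis3. A match in such a window describes its letters and was not tested for binding.

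The assays differed in depth and in what the SU library contained. Counts on genes were 7870450 in VMP and 8215177 in SU for Tag-seq, 4397699 and 7007767 for RNA-seq, while VMP cells held 248738 to 1200734 and SU cells 199849 to 1488320. The medians per cell were close, 614376 counts in VMP and 631066 in SU. Of 12 epithelial markers 10 could be matched to identifiers, and their summed level in Tag-seq was 544 CPM (counts scaled to library size) in VMP and 9056 CPM in SU, against 10.5 and 238 CPM in RNA-seq and 1.81 and 7.51 CPM in the summed cells. Of these 10, Cdh1, Krt17 and Krt19 had no read in any cell, Krt8 was read in 10 VMP cells, Epcam in 5 VMP and 8 SU cells and Krt15 in 6 SU cells, and the other 4 in at most 2 cells of a tissue. Of 9 mesenchymal markers 7 were matched. Col1a1, Col3a1 and Dcn were read in every cell of both tissues, Lum in 48 VMP and 66 SU cells, Pdgfra in 48 and 63, Pdgfrb in 34 and 64, and Thy1 in 0 and 13. The summed mesenchymal level was 45706 CPM in VMP and 22984 CPM in SU by Tag-seq. The sum was higher in SU elsewhere, with 22025 and 50272.5 CPM by RNA-seq and 11063 and 28615 CPM in the summed cells. In both, Col1a1, Col3a1, Pdgfrb, Lum and Thy1 were higher in SU. Pdgfra was higher in VMP, with 842 and 427 CPM by RNA-seq and 372 and 259 CPM in the summed cells. Dcn differed little, with 6316 and 5742 CPM and 3796 and 3772 CPM. All 8 skeletal muscle markers were matched, with 617 and 2460 CPM in VMP and SU by Tag-seq, 15.7 and 303 CPM by RNA-seq and 12.8 and 77.1 CPM in the summed cells. In the same order, 2 of 8 smooth muscle markers (Des and Lmod1) had 652 and 764, 148 and 30.4, and 216 and 21.5 CPM. For 4 of 7 endothelial markers the values were 681 and 222, 859 and 350, and 369 and 525 CPM. Of these, Cdh5 was read in 31 VMP and 53 SU cells, Emcn in 15 and 53 and Tie1 in 16 and 36. Kdr went the other way, with reads in 49 VMP and 31 SU cells and 270 and 52.9 CPM in the summed cells. A marker could be matched only if the study listed it as differing between the tissues in at least 1 assay. That these marker levels moved with tissue was thus set by the selection. Their part in the values of Ebf3 and Meis2 from the same libraries was not tested.

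Both genes were higher in VMP than in SU in each of the 3 assays, by about 4 to 7 times. The study had picked both as VMP-enriched markers from these samples, so this direction is not independent evidence. In Tag-seq, Ebf3 had 6689 counts in VMP and 861 in SU, or 850 CPM (95% Poisson interval 830 to 871) and 105 CPM (97.9 to 112). The log2 ratio of VMP over SU, on counts with TMM scaling, a trimmed mean of gene ratios, was 2.89 (2.79 to 2.99), a 7.41-fold difference, and 72 of 12191 tested genes had a higher ratio. Meis2 had 10043 counts in VMP and 2409 in SU by Tag-seq, or 1276 CPM (1251 to 1301) and 293 CPM (282 to 305). Its log2 ratio was 1.99 (1.93 to 2.06), or 3.98-fold, with 346 genes higher. Past a log2 ratio of 1.5, the limit used for a called gene, lay 7.2% of all tested genes toward VMP in Tag-seq, and both genes were among them. Poisson intervals cover counting error in these libraries and not variation between animals.

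The RNA-seq libraries of dissociated cells held fewer reads of both genes. Ebf3 had 224 reads in VMP and 71 in SU, or 50.9 CPM (44.5 to 58.1) and 10.1 CPM (7.91 to 12.8), a log2 ratio of 2.11 (1.73 to 2.52) and 4.32-fold. Meis2 had 1026 reads in VMP and 253 in SU, or 233 CPM (219 to 248) and 36.1 CPM (31.8 to 40.8), a log2 ratio of 2.48 (2.28 to 2.68) and 5.57-fold. Both passed the limit, as did 16.1% of genes toward VMP in RNA-seq, so the call itself was less selective than in Tag-seq. The number of genes with a higher ratio was larger, 2085 of 17527 for Ebf3 and 1789 for Meis2.

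Summed over cells, Ebf3 had 3061 reads in VMP and 888 in SU, or 103 and 20.1 CPM, with a log2 ratio of 2.27 (2.17 to 2.38). Meis2 had 21600 reads in VMP and 7036 in SU, or 725 and 159 CPM, with a log2 ratio of 2.11 (2.07 to 2.15). Both were past the limit, beside 17% of genes toward VMP in the summed cells. The Ebf3 ratio rested in part on a pair of SU cells, numbers 92 and 94, which held 239 and 132 of the 888 SU reads. Without them the log2 ratio of Ebf3 was 3.01 and that of Meis2 was 2.15. The labels put 3 more cells in SU, and 3 fewer in VMP, than the study's methods do for sequenced cells, which leaves it possible that as many as 3 cells labelled SU are VMP cells, although the number of VMP cells kept after the study's quality control equals that of the labels. The 3 SU cells with the most Ebf3, numbers 92, 94 and 75, held 440 of the 888 reads. These numbers are capture sites, and 94 is also the site of a cell labelled VMP. If the chips were separate, SU cell 94 cannot be a moved VMP cell, since that VMP site is taken. Numbers 92 and 75 occur in SU alone, and those cells could not be checked.

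**Figure D1:**
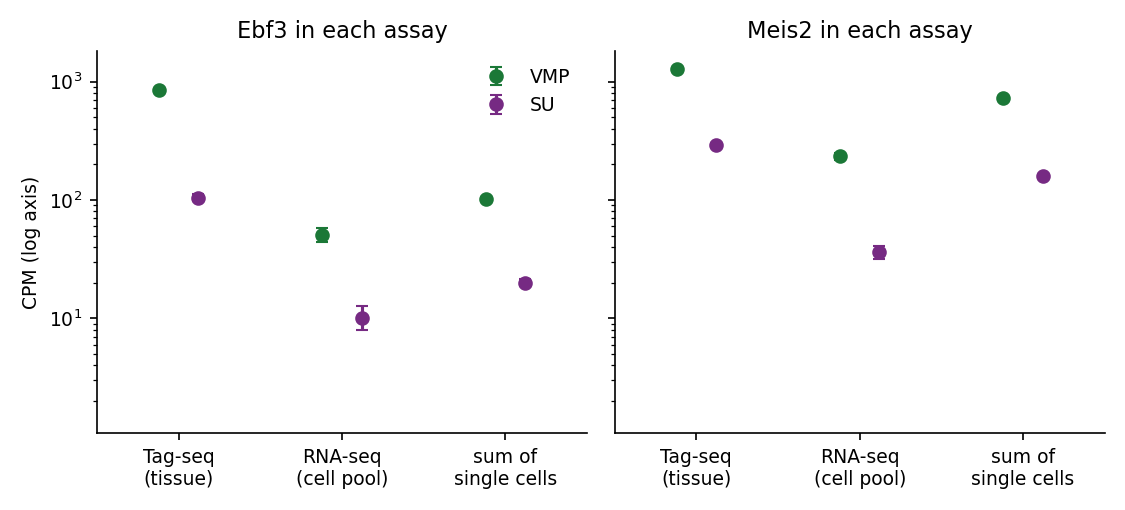
CPM of Ebf3 and Meis2 (log axis) in VMP and SU for Tag-seq of tissue, RNA-seq of pooled cells and the sum of single cells. Points are 1 library or 1 sum each, bars are 95% Poisson intervals, often smaller than the point. VMP lies above SU in all 3 assays, and Ebf3 falls from 850 CPM in Tag-seq to 50.9 CPM in RNA-seq of VMP.

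The order of the ratios was not the same across assays. Ebf3 exceeded Meis2 in Tag-seq (2.89 against 1.99) with intervals that did not overlap, whereas in RNA-seq the value of Meis2 was higher (2.48 against 2.11) with intervals that overlapped. In the summed cells Ebf3 was the higher of the pair (2.27 against 2.11), but the order turned when each cell counted equally, with 2.58 for Ebf3 and 2.60 for Meis2 from the mean of single-cell CPM. The share of reads also shifted between assays. Ebf3 had 16.7 times more CPM in Tag-seq than in RNA-seq in VMP and 10.3 times more in SU, while the factors for Meis2 were 5.47 and 8.12. Tag-seq is designed to count 1 tag position per transcript, so that its counts do not grow with transcript length. On that scale Meis2 stood at 1.501 times the Ebf3 count in VMP and at 2.80 times in SU. Only uniquely mapped tags were kept and all were summed per gene, so these need not be ratios of levels. The corresponding read ratios of RNA-seq, 4.58 and 3.56, and of the summed cells, 7.06 and 7.92, also depend on length and are not ratios of levels.

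The 2 bulk assays were also fitted together, with assay as a block, in edgeR's quasi-likelihood model of the 4 libraries. The error of this fit comes from the disagreement between Tag-seq and RNA-seq about the tissue difference, moderated by that of all other genes. It does not measure the spread of animals, nor the disagreement for 1 gene alone. The SE given here is the fold change divided by the square root of the F statistic of the test. Ebf3 had a log2 fold change of 2.51 (SE 0.577, edgeR adjusted p = 0.126) and Meis2 of 2.23 (SE 0.588, edgeR adjusted p = 0.179), neither past 0.05. Of 11273 genes, edgeR called 0 (0%) toward VMP and 23 (0.204%) toward SU, with 903 at an unadjusted p under 0.05. Ebf3 ranked 98 and Meis2 177 by p. DESeq2 on the same libraries called 230 genes toward SU (2.04%) and 89 toward VMP (0.789%), among the latter Ebf3 (log2 fold change 2.53, adjusted p = 0.000318) and Meis2 (2.25, adjusted p = 0.00126). The edgeR fit without a filter on low counts called 228 toward SU (0.971%) and 61 toward VMP (0.26%), among the latter Ebf3 (2.49, adjusted p = 0.0106) and Meis2 (2.21, adjusted p = 0.0497). With edgeR and DESeq2 size factors, which called 80 toward SU (0.71%) and 15 toward VMP (0.133%), the adjusted p was 0.0540 for Ebf3 and 0.105 for Meis2. The size of the difference thus stayed between 2.21 and 2.53 in all 4 fits, while the call differed between tools and filters. Since the study had chosen both genes as VMP-enriched from data that include these libraries, their ranks and calls are not independent evidence.

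In single cells, detection of the 2 genes did not separate the tissues, but their levels lay higher in most VMP cells. At least 1 read of Ebf3 was found in 49 of 49 VMP cells (100%, exact binomial 95% interval 92.7 to 100) and in 66 of 66 SU cells (100%, 94.6 to 100). Meis2 was read in 49 of 49 VMP cells and in 62 of 66 SU cells (93.9%, 85.2 to 98.3). Cells were counted without molecular identifiers, so a read is not an independent molecule and the intervals cover counting error alone.

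VMP cells had 3 to 341 reads of Ebf3 (median 24) and SU cells 1 to 239 (median 7). As CPM the VMP cells ran from 4.63 through a median of 38.5 to 1072, and the SU cells from 1.83 through 9.01 to 380. The mean was 126 ± 203 CPM (SD, n = 49 cells) in VMP and 21.03 ± 54.2 CPM (SD, n = 66 cells) in SU. The groups overlapped, with 55 of 66 SU cells above the lowest VMP cell, but 4 SU cells lay above the VMP median and 6 VMP cells below the SU median. A VMP cell had the higher Ebf3 CPM in 83.98% of all pairs of 1 VMP and 1 SU cell.

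Meis2 covered a wider range of levels than Ebf3. Reads per VMP cell ran from 2 through a median of 329 to 1963 and per SU cell from 0 through 28.5 to 970. As CPM, the median was 560 in VMP and 40.3 in SU, a 13.9-fold difference of medians against 4.27-fold for Ebf3. The mean was 870 ± 967 CPM (SD, n = 49 cells) in VMP and 143 ± 293 CPM (SD, n = 66 cells) in SU. A VMP cell was higher in 82.3% of cell pairs, close to the share for Ebf3, since 16 SU cells lay above the lower quartile of VMP and 8 VMP cells below the SU median. On log2(CPM + 1), the mean of Ebf3 was 5.71 ± 1.96 in VMP and 3.46 ± 1.26 in SU, and that of Meis2 was 8.55 ± 2.40 and 5.33 ± 2.52, so that each SU mean lay within 2 SD of the VMP mean.

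**Figure D2:**
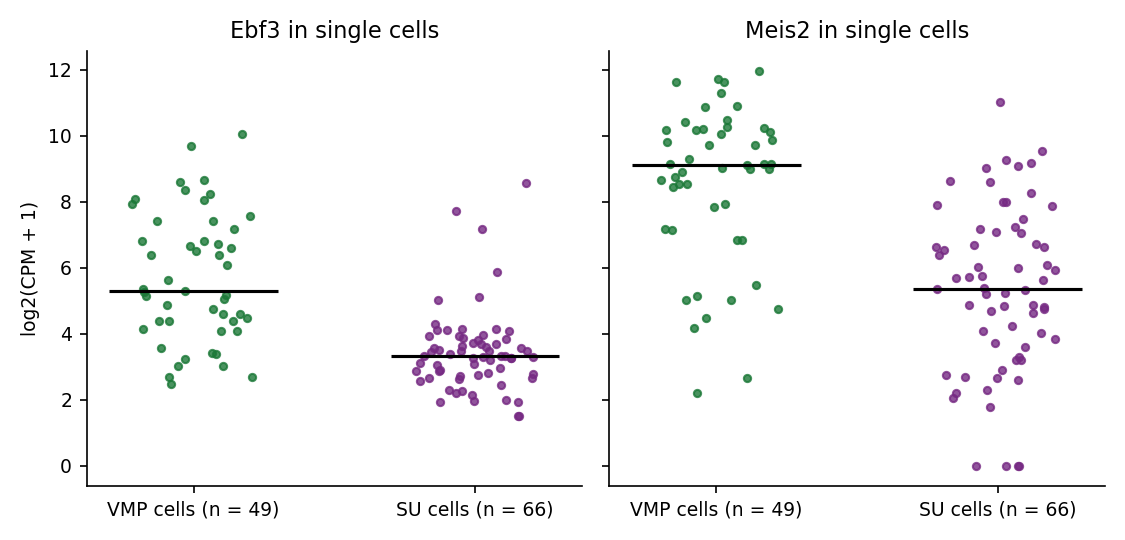
Ebf3 and Meis2 in each single cell as log2(CPM + 1), for 49 VMP and 66 SU cells; each point is a cell and the line is the median. VMP medians are higher for both genes, Ebf3 in SU is a narrow band with a few cells above it, and 4 SU cells have no Meis2 read.

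The distribution within a tissue differed between the genes. In VMP, Meis2 left a gap: 9 cells had 2 to 36 reads, 40 cells had 104 to 1963, and none had a value between. Ebf3 in VMP showed no such break, with 12 cells under 10 reads, 37 cells at 10 or more and 12 cells at 100 or more. In SU, 48 of 66 cells had fewer than 10 Ebf3 reads. A few SU cells carried much of the total, and the top 5 cells held 56.8% of Ebf3 reads and 52.0% of Meis2 reads. For comparison, the top 5 VMP cells held 41.3% of Ebf3 and 30.8% of Meis2 reads. The SU cells richest in Ebf3 were not the richest in Meis2, cells 92 and 94 having 151 and 246 Meis2 reads where the highest SU cell had 970.

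The 4 SU cells with no Meis2 read were numbers 33, 49, 50 and 52, with 8, 2, 1 and 1 reads of Ebf3. A count of 0 allows up to 3 reads, which is 3.10 CPM in cell 33, 14.1 in cell 49, 8.66 in cell 50 and 8.46 in cell 52. The lower quartile of all SU cells was 11.4 CPM, below the limit of cell 49 and above those of the others, so absence of Meis2 RNA cannot be stated at this depth.

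Raising the minimum number of reads opened a difference between tissues that the first read did not show. At 5 reads or more, Ebf3 was in 46 of 49 VMP cells and 40 of 66 SU cells, at 10 or more in 37 and 18, at 20 or more in 27 and 5, and at 100 or more in 12 and 2. Meis2 passed 5 reads in 47 VMP and 53 SU cells, 20 reads in 42 and 38, and 100 reads in 40 and 16. Among the minimums tried, the shares of the tissues lay farthest apart at 10 to 20 reads for Ebf3 and at 100 reads for Meis2.

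**Figure D3:**
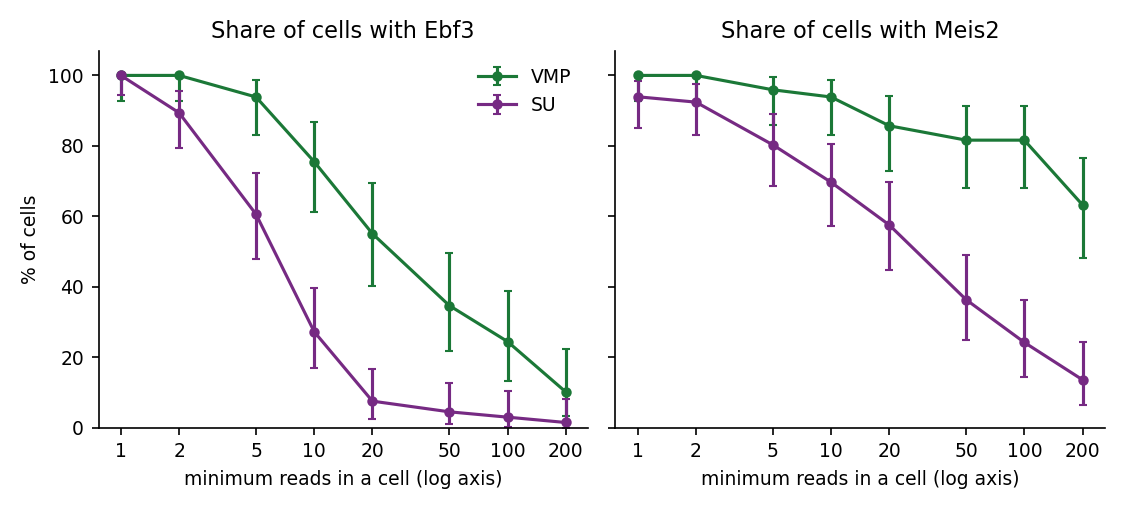
Percent of VMP and SU cells with at least the number of reads on the x axis (log axis), for Ebf3 and Meis2, with exact binomial 95% intervals over 49 and 66 cells. The tissues start together at 1 read of Ebf3 and part with the minimum, to 55.1% of VMP and 7.58% of SU cells at 20 reads.

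The number of reads in SU cells moved with sequencing depth. Within SU, reads of Ebf3 correlated with total counts on genes (Spearman rho 0.57) and with genes detected (0.46), and reads of Meis2 with rho 0.41 and 0.21. On CPM the correlation with total counts in SU was 0.14 for Ebf3 and 0.25 for Meis2. In VMP the correlations of reads with total counts were -0.05 for Ebf3 and -0.10 for Meis2, and of CPM -0.30 and -0.34. Calculated for every cell thinned to 199849 counts, the depth of the shallowest, Ebf3 would be read in 47.3 of 49 VMP cells (96.4%) and 55.7 of 66 SU cells (84.3%). For Meis2 the values were 48.3 VMP cells (98.6%) and 58.5 SU cells (88.7%). Equal depth thus lowered detection of Ebf3 in SU more than that of Meis2. At a minimum of 10 CPM, detection was 83.7% of VMP and 45.5% of SU cells for Ebf3, and 75.8% of SU cells for Meis2.

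Ebf3 was read in every cell at a level at which most genes were not. Of all genes, 387 were read in each of the 115 cells, and 45 of these had fewer summed reads than the 3949 of Ebf3. By contrast, 3785 genes had more reads than Ebf3, of which 3444 were missing from at least 1 cell. In SU alone, 561 genes were read in every cell, 19 of them with fewer reads than Ebf3, while 6226 of the 6767 genes with more reads were not in every SU cell. Ebf3 reads per SU cell had a median of 7 and followed total counts (rho 0.57). Whether such low reads come from the cell itself or from background was not tested. In VMP 217 of 620 genes read in every cell were lower than Ebf3, so its place there was less extreme. Meis2, with 28636 reads over all cells, was exceeded by 344 genes, and 163 of these also missed at least 1 cell.

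**Figure D4:**
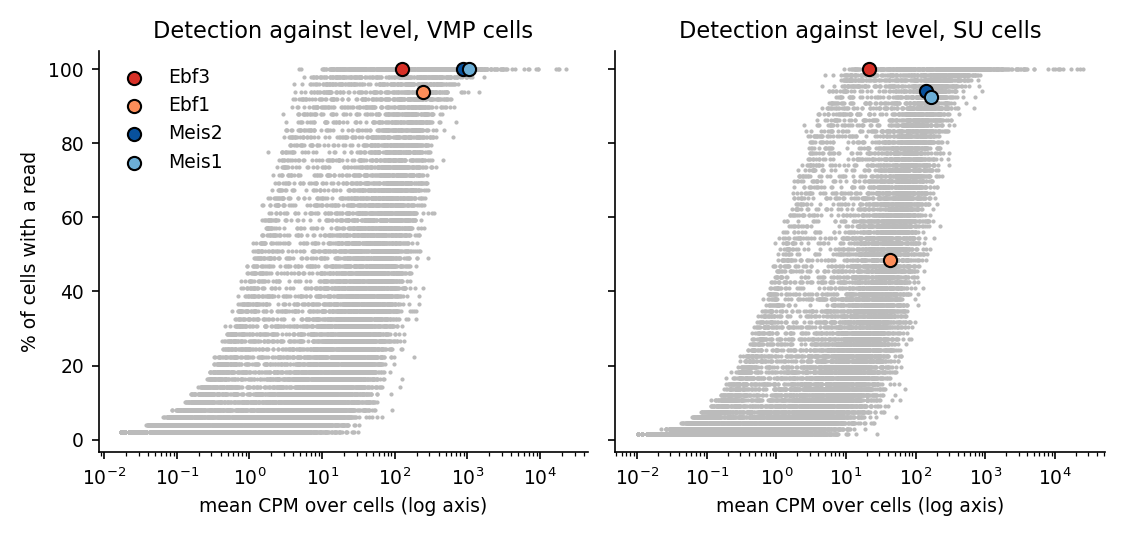
Percent of cells with a read against mean CPM over cells (log axis) for all genes read in at least 1 cell (grey), in VMP and SU, with Ebf3, Ebf1, Meis2 and Meis1 marked. In SU, Ebf3 lies at 100% near the lower limit of mean CPM for that detection, and Ebf1, at a higher mean, lies at 48.5%.

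The paralog Ebf1 showed the opposite balance of detection and level. It had 7947 reads summed over VMP cells and 1751 over SU cells, more than Ebf3 in both, yet was read in 46 of 49 VMP cells and in 32 of 66 SU cells (48.5%, 35.99 to 61.1). Its median was 15 reads in VMP and 0 in SU, with a maximum of 1829 in VMP and 586 in SU. Ebf1 reads in SU did not follow total counts (rho 0.06), whereas those of Ebf3 did. The tissue ratio of Ebf1 was on the VMP side throughout, with log2 values of 2.18 in Tag-seq, 2.17 in RNA-seq and 2.67 in the summed cells. In Tag-seq of VMP, 6689 counts of Ebf3 stood against 1060 of Ebf1, a ratio of 6.31, and in SU 861 against 223, a ratio of 3.86. In RNA-seq the order of the read counts turned, with 5.56 times more Ebf1 than Ebf3 reads in VMP and 5.34 times more in SU. Transcript length enters the RNA-seq counts, and no length correction was made here.

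The paralog Meis1 resembled Meis2 in detection, with reads in 49 of 49 VMP and 61 of 66 SU cells. Its median was 346 reads per cell in VMP and 10 in SU. Its log2 ratio was 1.33 in Tag-seq, 2.14 in RNA-seq and 2.504 in the summed cells, so that the Tag-seq value was under the limit and below that of Meis2. Meis2 counts were 2.27 times those of Meis1 in Tag-seq of VMP and 1.43 times in SU. Again RNA-seq had the reverse order of read counts, with 4.36 times more Meis1 than Meis2 in VMP and 5.52 times more in SU.

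Identifiers could be matched to symbols for genes that the study listed as differing between the tissues in at least 1 assay. The lists below, like the markers above, thus hold genes selected on these samples, and their counts are not independent evidence. Of the EBF family, 2 of 4 were matched (Ebf1 and Ebf3), and both were past the limit toward VMP in each assay, with medians of 2.53, 2.14 and 2.47 in Tag-seq, RNA-seq and summed cells, where the median of all tested genes was -0.01, 0.03 and -0.01. Zfp423, 1 of 2 zinc finger partners of EBF proteins, had log2 ratios of 1.88, -0.06 and -0.57, the second of which was 0.15 when scaled by total count. Of 18 TALE genes 5 were matched. Toward VMP, 2 of 5 were past the limit in Tag-seq (Meis2 and Pknox2; 7.2% of all genes), 2 of 5 in RNA-seq (Meis1 and Meis2; 16.1%) and 2 of 4 tested in the summed cells (again Meis1 and Meis2; 17%). Meis2 was the one past it in all 3.

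The remaining TALE genes had smaller or opposite differences. Pbx3, a DNA-binding partner of MEIS proteins, had log2 ratios of 1.24, 0.83 and 0.02 and was read in 37 VMP and 47 SU cells. Pknox2, a MEIS-related homeodomain gene, had 1.52, -0.75 and 0.31. Meis3 had a Tag-seq value of 0.25 and an RNA-seq value of -3.16, the latter past the limit toward SU beside 15.1% of all genes, and was read in 4 VMP and 7 SU cells. Of 16 posterior Hox genes, which pattern the urogenital tract, Hoxb13 and Hoxd13 were matched and none passed toward VMP in any assay. Toward SU, Hoxb13 passed in Tag-seq (-4.49), where 14.2% of genes did, and Hoxd13 in RNA-seq (-3.55).

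Of 21 other transcription factors of urogenital mesenchyme, 8 were matched, with medians of 0.26 in Tag-seq, -2.12 in RNA-seq and -1.20 in the summed cells. Toward VMP 1 passed in Tag-seq (Prrx2, 1.51; 7.2% of all genes), 0 in RNA-seq (16.1%) and 1 in the summed cells (Osr1, 2.90; 17%). Both passed toward SU elsewhere, Prrx2 with -2.67 in RNA-seq and -1.63 in the summed cells and Osr1 with -1.69 in Tag-seq. Toward SU 2 of 8 passed in Tag-seq (14.2% of all genes), 5 in RNA-seq (15.1%) and 3 in the summed cells (21.6%). A list of 9 genes that the study cites as earlier VMP markers, mostly secreted signals such as Fgf10 and Rspo2, had 6, 9 and 8 members past the limit toward VMP (7.2%, 16.1% and 17% of all genes) and medians of 1.79, 2.89 and 2.79. Those markers had been chosen on such tissue. The Ebf3 ratio lay above its median in Tag-seq and below it in the other assays.

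Among cells of a tissue, Ebf3 and Meis2 rose together weakly. On log2(spike-in normalized count + 1), Spearman rho was 0.31 in 49 VMP cells (Pearson r 0.24) and 0.43 in 66 SU cells (Pearson r 0.40). Cells share their chip, their pool of animals and their depth, so these are descriptions of the cells and carry no p. In SU the value depended on scale, being 0.22 on CPM, 0.42 in the 62 cells with reads of both genes and 0.33 after adjustment for total counts and genes detected. In VMP it was 0.31 on CPM and 0.23 after that adjustment. Leaving out SU cells 92 and 94 gave 0.42.

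The relation was set beside all genes read in at least 20 cells. In SU the median rho of Ebf3 with another gene was 0.18 and in VMP 0.05, and 5.57% of genes in SU and 3.02% in VMP had a higher rho with Ebf3 than Meis2 did. For Meis2 the medians were 0.11 in SU and 0.04 in VMP, with 0.404% and 3.21% of genes above Ebf3. On CPM the SU medians were 0.04 and 0.03. Of 10145 genes in SU, 1310 then had a higher rho with Ebf3 than Meis2 did, against 564 on the spike-in scale, and 531 had a higher rho with Meis2 than Ebf3 did, against 40.

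**Figure D5:**
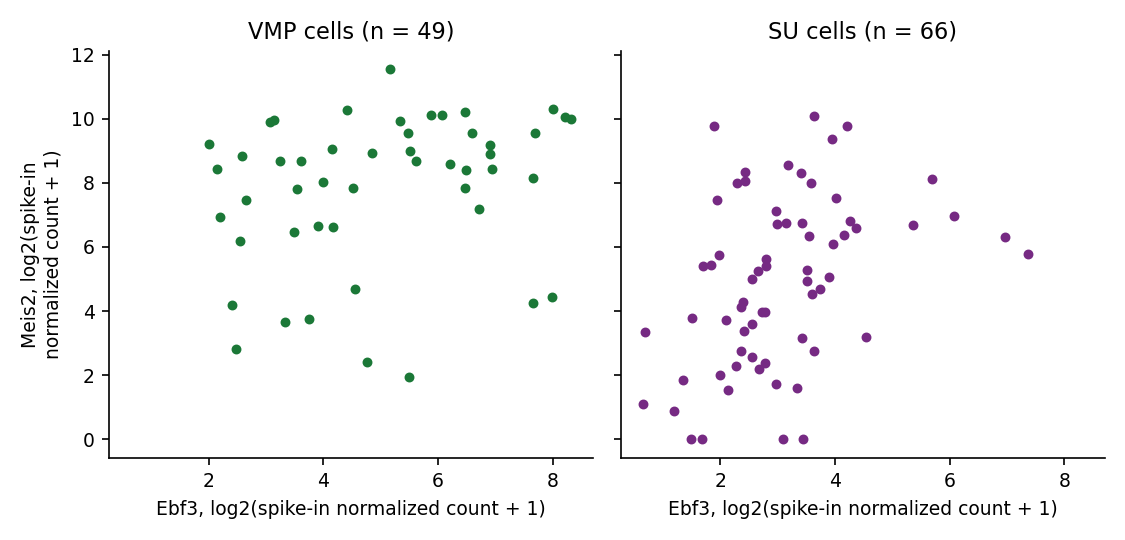
Meis2 against Ebf3 in each cell, both as log2(spike-in normalized count + 1), for VMP and SU cells; each point is a cell. In VMP some of the cells highest in Ebf3 are low in Meis2, and in SU most cells lie between 1 and 5 on the Ebf3 axis, with 5 cells above.

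Cells were also counted by threshold. At 20 reads or more, 24 VMP cells passed for both genes, 3 for Ebf3 alone, 18 for Meis2 alone and 4 for neither. At 100 reads the numbers were 10, 2, 30 and 7. Among VMP cells that passed for Ebf3, the share that passed for Meis2 was 88.9% at 20 reads and 83.3% at 100 reads, close to the 85.7% and 81.6% of all VMP cells. In SU at 10 reads, 17 cells passed for both, 1 for Ebf3 alone, 29 for Meis2 alone and 19 for neither, and at 20 reads 5, 0, 33 and 28. Among SU cells that passed for Ebf3 at 10 reads, 94.4% passed for Meis2 (17 of 18), against 69.7% of all SU cells, and at 20 reads the share rested on 5 cells. The same minimum is a different depth of cut for the 2 genes, since Meis2 had about 7 to 8 times more reads.

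The paralogs did not form a block of covarying genes. Ebf3 with Ebf1 had rho 0.27 in VMP and -0.04 in SU, and Meis2 with Meis1 had -0.09 in VMP and 0.43 in SU. Ebf3 with Meis1 had 0.32 in VMP and 0.29 in SU, and Meis2 with Ebf1 -0.11 and 0.15. Fgf10, the growth factor of prostate induction, had rho 0.17 and 0.33 with Ebf3, and -0.06 and 0.15 with Meis2. On this spike-in scale, Ebf3 with Meis1 in VMP and Meis2 with Meis1 in SU were about as high as Ebf3 with Meis2 (0.31 and 0.43). The relation was thus not particular to that pair. On CPM, Meis2 with Meis1 had -0.18 in VMP and 0.33 in SU, and Ebf3 with Meis1 0.23 and 0.14. Ebf3 with Meis2 had 0.31 and 0.22 on CPM.

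The genes most like each member were ranked by the mean of the 2 within-tissue rho values over 10149 genes, of which 1536 had a symbol. Those with a symbol were again genes that the study listed as differing between the tissues in at least 1 assay. For Ebf3 the named genes included Rab11fip1, a Rab11 effector in membrane recycling (mean rho 0.44, rank 26 of all genes), Perp, a p53 target of desmosomes (0.44, rank 27), Fzd4, a Wnt receptor (0.44, rank 29), and Syt3, a synaptotagmin (0.42, rank 50). Several shared the detection of Ebf3, with reads in 49 VMP cells each for Perp, Fzd4 and Syt3, and in 66, 65 and 65 SU cells. Their tissue differences varied, and are given in the order Tag-seq, RNA-seq and summed cells. Perp had log2 ratios of -4.45, -0.22 and 0.19, Rab11fip1 had -3.31, -1.16 and 0.11, and Fzd4 had 1.21, 0.43 and -0.16. Syt3 had 1.90, 0.65 and 1.16, on the VMP side throughout as Ebf3 was, with smaller values.

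For Meis2 the 5 were Col1a1, the collagen type I chain (mean rho 0.38, rank 12), Chrna1, the alpha subunit of the muscle acetylcholine receptor (0.38, rank 14), Ebf3 itself (0.37, rank 19), Rab11fip1 (0.35, rank 41) and Perp (0.34, rank 51). Meis2 ranked 121 for Ebf3 by the same mean rho of 0.37, and the gap in rank arose in SU. There 564 genes exceeded Meis2 for Ebf3 and 40 exceeded Ebf3 for Meis2, with 1310 and 531 on CPM. In VMP 306 genes exceeded Meis2 for Ebf3 and 325 exceeded Ebf3 for Meis2. Col1a1 had a log2 ratio of 1.30 in Tag-seq and -1.60 in the summed cells, and Chrna1 -3.72 and -0.74, so neither followed Meis2 between tissues. The highest mean rho over all genes was 0.56 for Ebf3 and 0.42 for Meis2.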

How the data were processed

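The deposited files are tables of counts per Ensembl gene that the authors made on the Rnor_6.0 genome. For Tag-seq, NlaIII tags were aligned with Bowtie2, tags in unplaced contigs, mitochondrial tags and multiply mapped tags were dropped, and the rest counted per gene. For the cells, reads were trimmed with Trimmomatic 0.33, aligned with TopHat and stripped of duplicates with Picard 1.128. The methods name summarizeOverlaps as the counter and the labels HTSeq. Alignment of the bulk RNA-seq was not described apart. Strand was not stated, so antisense reads cannot be told from sense. Duplicates without molecular identifiers are removed by position, which can compress high counts.

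The 95 spike-in rows were kept out of the gene totals, which scale CPM. Ratios were computed on TMM-scaled counts with 0.5 added, over genes of at least 1 CPM in a library. The cell tables held 49 VMP and 66 SU columns, assigned by the labels; the methods count 3 fewer SU and 3 more VMP cells. All cells were kept. No 2 cells had identical counts. In both tissues 33 capture site numbers occurred, from which separate chips were inferred, although the labels name no chip. edgeR 4.0.16 and DESeq2 1.42.0 (R 4.3.3) fitted the 4 bulk libraries with assay as a block, and numpy 2.4.6, scipy 1.17.1 and pandas 2.3.3 (Python 3.11.15) did the rest.

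Symbols for 2995 identifiers came from the study's annotated gene tables. Named genes are Ebf3, Meis2, members of the gene lists, and for each of the pair the 5 genes with a symbol and the highest mean rho, of which 1 is not reported here. The members and lists were chosen with earlier results of these data known. Promoters were from RefSeq, build GRCr8, and Meis2 had no entry there. Alternatives were total-count or spike-in scaling, a pseudocount of 5, other limits and filters, thinning, and a filter of cells at 3 median absolute deviations.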

Additional observations from a re-analysis of the deposited data

How the results depend on the processing

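Of 95 alternative values, 71 stayed the same by direction, threshold and counting error, 20 moved, 4 became significant and none reversed. Scaling by total count gave log2 ratios of 3.02 for Ebf3 and 2.12 for Meis2 in Tag-seq, 2.69 for Meis2 in RNA-seq and 2.19 for Meis2 in the summed cells; it shifted all genes by 0.13, 0.21 and 0.08. For Meis2 in the summed cells, spike-in scaling gave 2.05, the filter of cells at 3 median absolute deviations (47 VMP and 64 SU cells kept) also gave 2.05, and the mean of single-cell CPM gave 2.60, against 2.58 for Ebf3. Without SU cells 92 and 94, left out after seeing the data, the values were 3.01 for Ebf3 and 2.15 for Meis2. Detection of Ebf3 fell to 83.7% of VMP and 45.5% of SU cells at 10 CPM, and in SU to 60.6% at 5 reads and 84.3% at equal depth. Detection of Meis2 in SU fell to 75.8% at 10 CPM and 80.3% at 5 reads. The rho of the pair in SU was 0.22 on CPM. In the bulk fit, DESeq2 gave 2.53 for Ebf3 and 2.25 for Meis2, and edgeR without a filter 2.49 and 2.21, all past the threshold. At a log2 limit of 1, 4 TALE genes and 3 other mesenchymal factors passed toward VMP in Tag-seq, beside 15.8% of all genes, and 0 and 2 toward SU, beside 21.2%. Under total-count scaling 3 of the latter factors passed toward VMP (8.9% of all genes) and 2 toward SU (12.7%). Apart from the removal of named cells and fewer counts under a higher minimum or equal depth, the cause was not tested.

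No paired analysis was possible because of what the replicate numbers are. Those shared by cells are capture sites, on chips inferred to be separate and loaded with different pools, and the cells enter no test. The bulk libraries carry no such numbers and were paired by assay in the block fit. Leaving out 1 bulk library leaves no residual degrees of freedom in the block fit, so no such value is given. Depth limits statements on SU cells, where a median of 7 Ebf3 reads lies near the detection limit.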
